A study of Mus musculus with 4 samples.

Results

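The genes described here are 10 genes of natural killer (NK) cells and of the cytotoxic granule, chosen by name: Gzma, Gzmb, Prf1, Nkg7, Klrk1, Ncr1, Klrb1c, Klrd1, Eomes and Tbx21. All 10 were found among the 55450 gene rows of the count files, and all 10 passed the filter on low counts that left 18297 genes. RNA was sequenced from CD11c+ cells of the mesenteric lymph nodes (MLN) of wild-type C57BL/6J mice, a strain that carries the NK1.1 antigen. The agonist libraries came from wells with 10 µM of an Ffar2 agonist, a compound that activates the receptor for short-chain fatty acids, and the control libraries from wells with water. There were 2 agonist and 2 control libraries, numbered 2 and 3 in both groups. Per the labels' protocols, 2 nodes were pooled for each sample, CD11c+ cells were taken with magnetic beads, the cells of a sample were divided between an agonist and a control well, and the wells were harvested after 6 h. Libraries with the same number are therefore called pool 2 and pool 3 below. All 4 libraries share the bead enrichment and the culture, and neither the agonist's chemical name nor the age or sex of the mice is given in the sources used here. The title of the series links Ffar2 with dendritic cells, IL-27 and CD8+ T cells in colorectal cancer.

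NK cells and cytotoxic T cells kill by releasing granules onto a target cell. Perforin (Prf1) opens pores in the target membrane, granzymes such as Gzma and Gzmb enter and cleave proteins inside the target, and Nkg7 is a membrane protein of the granule that takes part in its release. Whether an NK cell fires depends on receptors that read the target's surface: Klrk1 encodes the activating receptor NKG2D, Ncr1 the activating receptor NKp46, Klrb1c the NK1.1 antigen, and Klrd1 encodes CD94, which pairs with NKG2 chains to read the class I molecule Qa-1. Eomes and Tbx21 (T-bet) are T-box transcription factors that set NK and effector T cell identity. In mouse lymph nodes CD11c is carried by dendritic cells and also by some NK cells and activated T cells, so bead enrichment on CD11c can keep some of these cells.

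Reads assigned to genes numbered 43238375 to 59902172 per library. Correlations of log2 CPM (CPM is a gene's reads scaled to a common library size) across the tested genes were 0.936 to 0.965 between libraries. The libraries of pool 3 had 0 reads of Xist, a transcript of the inactive X, and 359 to 378 CPM of the Y-linked gene Ddx3y; those of pool 2 had 408 CPM of Xist and 0 reads of Ddx3y. The pools thus differed in the sex-linked transcripts of their mice, and any other difference between them cannot be told apart from sex. Over all genes, edgeR's quasi-likelihood test called 0 of 18297 genes between agonist and control at an adjusted p under 0.05 (0.00%). At the same adjusted threshold DESeq2 called 7 genes and limma-voom 0. At an unadjusted p under 0.05 edgeR gave 172 lower (0.940%) and 117 higher (0.639%) genes, DESeq2 392 genes in either direction and limma-voom 230. Blocked by pool, edgeR called 1 gene, the immunoglobulin gene Igha.

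The members had very different levels. Compared per kilobase of exon, Klrd1 had the highest level, with 87.5 to 120.1 CPM per kilobase over the 4 libraries, and Klrk1 followed with 15.6 to 20.9. Nkg7 came next with 6.02 to 13.1 CPM per kilobase, then Gzma with 3.68 to 8.74, Gzmb with 0.344 to 4.89, Ncr1 with 1.30 to 2.41 and Prf1 with 0.403 to 3.08. Klrb1c had 0.357 to 0.866 CPM per kilobase, Eomes 0.0976 to 0.392 and Tbx21 0.0425 to 0.216. The ranges of Klrd1, Klrk1 and Nkg7 did not overlap in this order, whereas from Nkg7 down each gene's range overlapped that of the next. The gap between Klrd1 and Klrk1 comes from the division by exon length, 1281 bases for Klrd1 and 7183 for Klrk1. In CPM not divided by length their ranges overlapped, at 112.1 to 153.9 for Klrd1 and 111.8 to 150.1 for Klrk1. The level of Klrk1 was 11.9 times that of Ncr1 per kilobase (median over the 4 libraries, SD 3.21). Every member had reads in all 4 libraries, and the NK markers Ncr1 and Klrb1c were read far below Klrk1 and Klrd1. Itgax, the gene of CD11c itself, had 37.1 CPM per kilobase in pool 2 and 19.9 in pool 3 of the agonist, against 39.3 in pool 2 and 22.0 in pool 3 of the control.

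**Figure D1:**
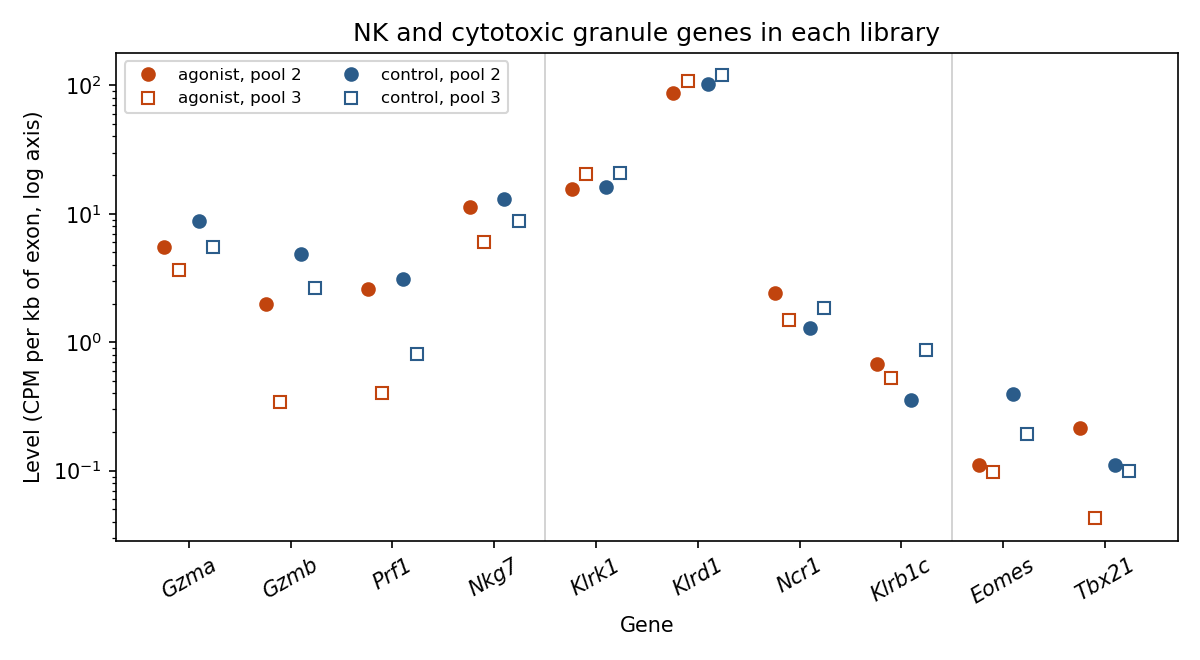
Level of the 10 genes in each library, in CPM per kilobase of exon on a log axis, with agonist libraries on the left and control libraries on the right of each gene; filled circles are pool 2 and open squares pool 3. Klrd1 (87.5 to 120.1) and Klrk1 (15.6 to 20.9) stand above the other members. Gzma, Gzmb, Prf1, Nkg7, Eomes and Tbx21 are lowest in the agonist well of pool 3.

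All 4 granule genes were lower in the agonist well than in the control well in both pools, and 0 of them passed the test. Their summed level was 25.4 CPM in pool 2 and 10.7 CPM in pool 3 of the agonist, against 35.8 CPM in pool 2 and 19.5 CPM in pool 3 of the control. Over all tested genes 27.8% were lower in both pools. Gzmb had the largest difference and was the only granule gene whose groups did not overlap. Over all tested genes 13.5% were lower in the agonist without overlap. In these bulk libraries, fewer cells of a type and less RNA per cell cannot be told apart.

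The promoters of these 4 genes, and that of Ncr1 as a receptor gene that did not share their direction, are shown because RUNX and T-box factors are known to act on genes of cytotoxic lymphocytes. Each window is RefSeq's on build GRCm38.p6, from 250 bases before to 50 bases after the gene's start, written 5′ to 3′ on the gene's strand. Capitals mark the RUNX core TGTGGT and the T-box core GGTGTG on either strand.

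Gzma, chr13:113100932-113101231, minus strand: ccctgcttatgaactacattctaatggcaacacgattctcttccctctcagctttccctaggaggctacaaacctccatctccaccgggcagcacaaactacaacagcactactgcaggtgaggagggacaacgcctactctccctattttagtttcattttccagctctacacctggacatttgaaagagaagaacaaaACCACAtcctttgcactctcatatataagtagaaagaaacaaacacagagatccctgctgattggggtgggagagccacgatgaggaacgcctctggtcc
Gzmb, chr14:56262285-56262584, minus strand: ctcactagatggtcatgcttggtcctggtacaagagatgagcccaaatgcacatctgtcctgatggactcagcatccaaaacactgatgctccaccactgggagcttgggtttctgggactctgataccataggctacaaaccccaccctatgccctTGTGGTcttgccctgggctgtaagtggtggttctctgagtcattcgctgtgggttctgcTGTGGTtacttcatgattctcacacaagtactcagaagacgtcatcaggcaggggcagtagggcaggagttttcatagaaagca
Prf1, chr10:61297586-61297885, plus strand: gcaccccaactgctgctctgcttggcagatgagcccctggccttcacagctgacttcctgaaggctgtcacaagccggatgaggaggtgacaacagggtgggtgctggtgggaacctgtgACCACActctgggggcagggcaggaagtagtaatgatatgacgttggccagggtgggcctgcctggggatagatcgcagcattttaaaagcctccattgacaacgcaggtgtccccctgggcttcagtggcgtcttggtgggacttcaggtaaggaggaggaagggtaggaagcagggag
Nkg7, chr7:43436888-43437187, plus strand: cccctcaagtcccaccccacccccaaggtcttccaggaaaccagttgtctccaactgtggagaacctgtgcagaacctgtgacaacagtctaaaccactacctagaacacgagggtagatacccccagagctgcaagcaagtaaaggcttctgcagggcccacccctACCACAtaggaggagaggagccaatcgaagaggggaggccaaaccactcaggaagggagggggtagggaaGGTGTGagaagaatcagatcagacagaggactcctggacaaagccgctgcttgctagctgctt
Ncr1, chr7:4337465-4337764, plus strand: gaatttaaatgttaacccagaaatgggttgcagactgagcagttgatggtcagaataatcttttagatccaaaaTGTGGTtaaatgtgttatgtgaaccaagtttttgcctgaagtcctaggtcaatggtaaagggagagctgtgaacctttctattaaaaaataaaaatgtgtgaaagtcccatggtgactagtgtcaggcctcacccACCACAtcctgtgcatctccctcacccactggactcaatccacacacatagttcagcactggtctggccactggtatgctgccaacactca

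Gzmb held the RUNX core at both -93 and -34 relative to its start, Gzma at -50, Prf1 at -130, Nkg7 at -83 and Ncr1 at -176 and -41 (position of the first base of the match). RefSeq windows were found for 9 of the 10 members, 10 windows in all because Ncr1 has 2 overlapping ones; Klrd1 had none. The RUNX core was in windows of 7 of the 9 genes, the other two being Klrb1c (-89) and Klrk1 (-129), and in 16.8% of all 32851 promoter windows of this length. The T-box core was in the window of 1 member, Nkg7 (-13), and in 19.1% of all windows. On the same windows the AP-1 motif TGANTCA was found in 2 members (Gzmb and Klrk1; 7.81% of all windows), the STAT motif TTCNNNGAA in 2 (Gzmb and Nkg7; 8.30%) and the cyclic AMP response element TGACGTCA in 0 (1.79%). These 3 motifs read the same on both strands, and no match of theirs overlapped a RUNX or T-box match. The matches describe letters and not bound sites. The gene of the factor Runx3, read on the same libraries, had 17.8 and 10.2 CPM in the agonist and 21.7 and 9.80 CPM in the control libraries (log2 fold change -0.17, SE 0.50).

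Gzmb (ENSMUSG00000015437.5, chromosome 14, 56258838 to 56262260, minus strand, GRCm38, protein-coding) had 148 reads in pool 2 and 28 in pool 3 of the agonist, against 306 in pool 2 and 199 in pool 3 of the control. In CPM these were 2.85 and 0.494 in the agonist and 7.03 and 3.81 in the control libraries, so both agonist libraries lay below both control libraries. The mean was 1.67 ± 1.66 CPM in the agonist and 5.42 ± 2.28 CPM in the control wells (SD, n = 2 each). On the log2 scale agonist over control was -1.70, with a standard error (SE) of 0.85 and a 95% interval of -3.76 to 0.36. In edgeR's test p was 0.0912 before and 0.9999 after adjustment over all genes, so the difference did not pass. Blocking by pool gave -2.08 (SE 0.54, from -3.30 to -0.86), with edgeR's p at 0.00388 and its adjusted p = 0.9998. Within the pools the log2 ratio of agonist over control was -1.29 in pool 2 (95% counting interval -1.60 to -1.02) and -2.85 in pool 3 (-3.57 to -2.37). Those intervals come from the read counts of a pair of wells, cover counting error only, and do not overlap between the pools.

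Gzma (ENSMUSG00000023132.8, chromosome 13, 113093825 to 113100981), a granzyme with trypsin-like cleavage, had 290 reads in pool 2 and 210 in pool 3 of the agonist, against 383 in pool 2 and 288 in pool 3 of the control. The levels were 5.58 and 3.70 CPM in the agonist and 8.80 and 5.51 CPM in the control libraries. Agonist pool 2 was slightly above control pool 3, so the groups overlapped, although each agonist well was below its own control. Its log2 fold change of -0.62 had an SE of 0.46 and an interval of -1.73 to 0.48 (edgeR adjusted p = 0.9999). The within-pool log2 ratios were close to each other, at -0.65 in pool 2 (counting interval -0.88 to -0.43) and -0.57 in pool 3 (-0.84 to -0.31).

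Prf1 (ENSMUSG00000037202.6, chromosome 10, 61297833 to 61304680) differed between the pools more than between the conditions. It had 348 reads in pool 2 and 59 in pool 3 of the agonist, against 347 in pool 2 and 109 in pool 3 of the control, or 6.69 and 1.04 CPM in the agonist and 7.97 and 2.09 CPM in the control libraries. Both libraries of pool 3 were thus below both of pool 2, and the groups overlapped. A log2 fold change of -0.38 came with a wide error (SE 0.97, from -2.74 to 1.98, edgeR adjusted p = 0.9999). It was 0.41 without agonist replicate 3, 0.89 without control replicate 2 and -2.23 without agonist replicate 2; each such fit compares 1 pool with 2. The within-pool log2 ratio was -0.25 in pool 2 (counting interval -0.47 to -0.033) and -0.98 in pool 3 (-1.49 to -0.53).

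Nkg7 (ENSMUSG00000004612.9, chromosome 7, 43437073 to 43438249) had 535 reads in pool 2 and 312 in pool 3 of the agonist, against 523 in pool 2 and 423 in pool 3 of the control. In CPM the agonist libraries had 10.3 and 5.50 and the control libraries 12.0 and 8.10, with overlapping groups. Agonist over control was -0.35 on the log2 scale (SE 0.46, from -1.46 to 0.76, edgeR adjusted p = 0.9999), and 0.029 without agonist replicate 3. The within-pool log2 ratio was -0.22 in pool 2 and -0.55 in pool 3.

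**Figure D2:**
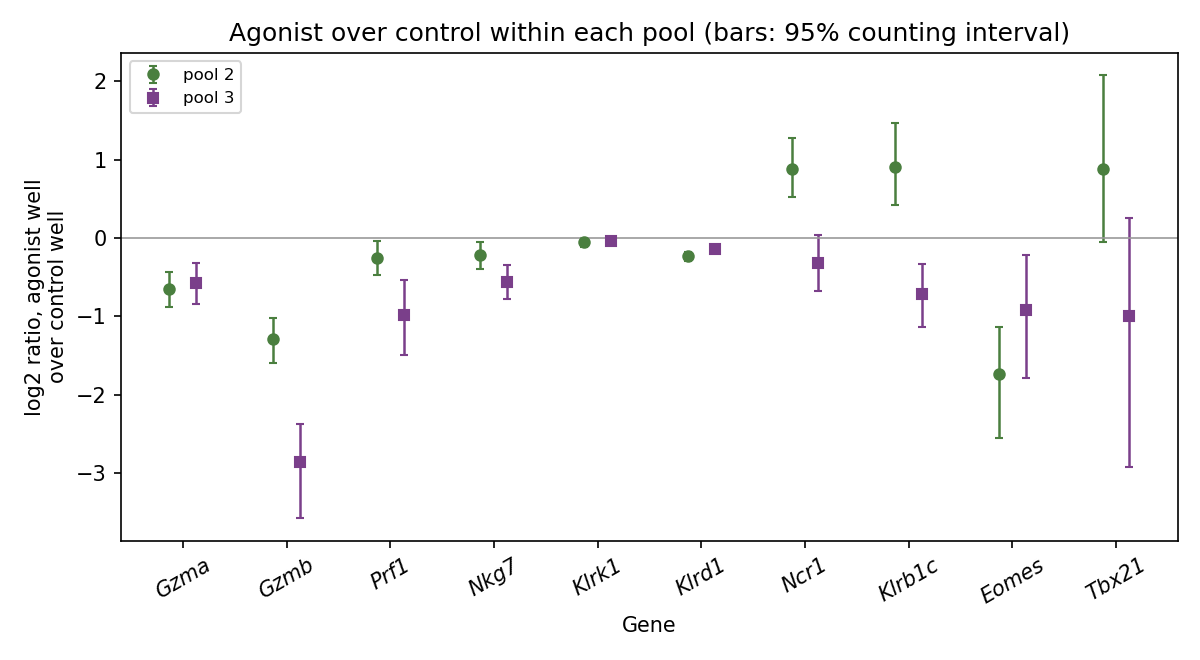
log2 ratio of the agonist well over the control well of the same pool for each gene, from log2 CPM with a prior count of 2; circles are pool 2, squares pool 3, and bars the 95% interval from the 2 read counts. The 4 granule genes, Klrk1, Klrd1 and Eomes lie below 0 in both pools, and Ncr1, Klrb1c and Tbx21 lie above 0 in pool 2 and below it in pool 3.

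Among the receptors, the 2 abundant genes, Klrk1 and Klrd1, varied little. The 2 scarcer genes, Ncr1 and Klrb1c, varied in opposite directions in the pools. Klrk1 (NKG2D; ENSMUSG00000030149.15, chromosome 6, 129610323 to 129623864) had 5814 reads in pool 2 and 8327 in pool 3 of the agonist, against 5062 in pool 2 and 7843 in pool 3 of the control. At 129 ± 24.7 CPM in the agonist and 133 ± 23.95 CPM in the control wells (SD, n = 2 each), the conditions differed by less than the spread between libraries. The interval of the log2 fold change, -0.75 to 0.67 around -0.043, bounds the difference that these libraries allow (SE 0.29, edgeR adjusted p = 0.9999).

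Klrd1 (CD94; ENSMUSG00000030165.16, chromosome 6, 129591782 to 129598775), the neighbour of Klrk1 in the NK gene complex, had 5827 reads in pool 2 and 7901 in pool 3 of the agonist, against 5739 in pool 2 and 8038 in pool 3 of the control. The mean was 126 ± 19.3 CPM in the agonist and 143 ± 15.6 CPM in the control wells (SD, n = 2 each). The groups overlapped, and the difference was -0.18 log2 units (SE 0.27, from -0.85 to 0.48, edgeR adjusted p = 0.9999). Klrk1 and Klrd1 were higher in pool 3 than in pool 2 in both conditions, by 0.39 and 0.31 log2 units in the agonist wells and by 0.37 and 0.22 in the control wells. The 4 granule genes had the opposite order of the pools.

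Ncr1 (NKp46; ENSMUSG00000062524.4, chromosome 7, 4337724 to 4345164) had 193 reads in pool 2 and 129 in pool 3 of the agonist, against 87 in pool 2 and 148 in pool 3 of the control. The levels were 3.71 and 2.27 CPM in the agonist and 2.00 and 2.83 CPM in the control libraries, with the control values inside or below the range of the agonist. The within-pool log2 ratio was 0.88 in pool 2 (counting interval 0.52 to 1.28) and -0.31 in pool 3 (-0.67 to 0.033). Over both pools the log2 fold change of 0.31 was smaller than its SE of 0.52 (from -0.96 to 1.58, edgeR adjusted p = 0.9999).

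Klrb1c (NK1.1; ENSMUSG00000030325.16, chromosome 6, 128778485 to 128789215) followed the same pattern, with 105 reads in pool 2 and 88 in pool 3 of the agonist, against 46 in pool 2 and 134 in pool 3 of the control. In CPM these were 2.02 and 1.55 in the agonist and 1.06 and 2.57 in the control libraries, so the control libraries held both the lowest and the highest value. The within-pool log2 ratio was 0.91 in pool 2 (counting interval 0.42 to 1.47) and -0.71 in pool 3 (-1.13 to -0.33), and those intervals do not overlap. Over both pools Klrb1c was at -0.023 log2 units (SE 0.63, from -1.56 to 1.51, edgeR adjusted p = 0.9999), and this sign changed in several alternative fits. The summed level of Ncr1 and Klrb1c was 5.73 CPM in pool 2 and 3.83 CPM in pool 3 of the agonist, against 3.05 CPM in pool 2 and 5.40 CPM in pool 3 of the control. In pool 2 these receptor genes were therefore higher in the agonist well, where the granule genes were lower. In pool 3 both sets were lower there.

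The T-box factor genes were near the lower limit of what these libraries resolve. Eomes (ENSMUSG00000032446.14, chromosome 9, 118478212 to 118486132) had 24 reads in pool 2 and 23 in pool 3 of the agonist, against 71 in pool 2 and 42 in pool 3 of the control. At 0.462 and 0.406 CPM in the agonist and 1.63 and 0.804 CPM in the control libraries, the groups did not overlap (13.5% of all genes, agonist lower). The difference of -1.48 log2 units had an SE of 0.74 and an interval of -3.28 to 0.31 (edgeR unadjusted p = 0.0902, edgeR adjusted p = 0.9999). Blocking by pool gave -1.40 (SE 0.77, edgeR adjusted p = 0.9998). The within-pool log2 ratio was -1.74 in pool 2 (counting interval -2.55 to -1.14) and -0.92 in pool 3 (-1.79 to -0.22). An antisense gene, Gm33460, overlaps the 3′ end of Eomes in the annotation, and the library kit does not mark strand.

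Tbx21 (T-bet; ENSMUSG00000001444.2, chromosome 11, 97098071 to 97115331) had 28 reads in pool 2 and 6 in pool 3 of the agonist, against 12 in pool 2 and 13 in pool 3 of the control. The agonist libraries held the highest and the lowest of the 4 values, 0.539 and 0.106 CPM, around 0.276 and 0.249 CPM in the control. Its log2 fold change of 0.29 came with an SE of 1.14 (from -2.46 to 3.05, edgeR adjusted p = 0.9999) and was -0.083 when blocked by pool. Its counting intervals included 0 in both pools.

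**Figure D3:**
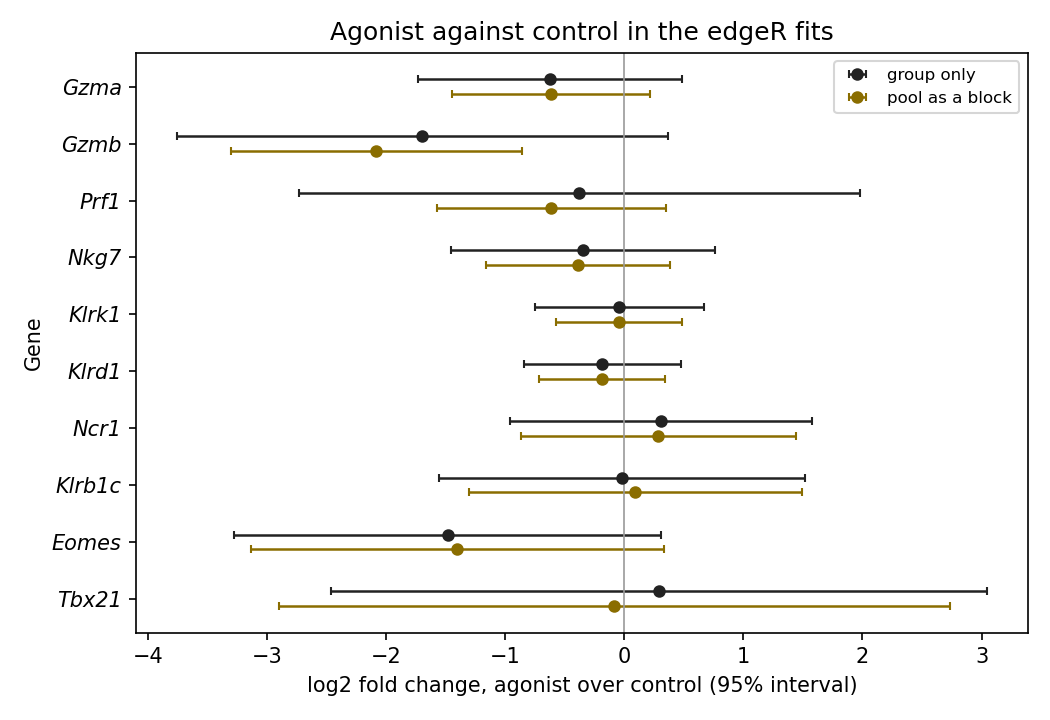
log2 fold change of agonist over control for each gene with its 95% interval in the edgeR fit with group only (black, upper) and with the pool as a block (brown, lower). All intervals of the first fit include 0; in the second the interval of Gzmb (-3.30 to -0.86) lies below it.

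As a list, 0 of the 10 members passed the test in either fit (background 0.00% of genes without and 0.00547% with the pool as a block), and 0 had an unadjusted p under 0.05 without the block, against 1.58% of all genes. With the block 1 member did, Gzmb, lower, against 1.84% of all genes lower, 1.69% higher and 3.53% in either direction at that p. Lower values in both pools were seen in 7 of the 10, against 27.8% of all genes, and higher values in both pools in 0, against 21.0%. Of the 7, Klrk1 was nearest to 0, at -0.056 in pool 2 and -0.032 in pool 3 (counting interval in pool 3 -0.077 to 0.012). Scaled by total counts only, its pool 2 ratio was 0.0044. In 3 members, Ncr1, Klrb1c and Tbx21, the pools pointed opposite ways. The groups did not overlap in 2 members, Gzmb and Eomes, both lower in the agonist, against 13.5% of all genes lower and 11.4% higher without overlap. The median log2 fold change was -0.27 over the 10 members and -0.047 over all tested genes. Within the pools the member median was -0.23 in pool 2 and -0.64 in pool 3, beside -0.095 and -0.0048 for all genes. Without agonist replicate 2 the member median was -0.87.

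The pools differed in the members in both conditions. Values were lower in pool 3 than in pool 2 in both conditions in 6 of the 10 members (31.1% of all genes) and higher in 2 (29.7% of all genes). The 6 were the 4 granule genes and both T-box genes, and the 2 were Klrk1 and Klrd1. Prf1 had the largest such difference, -2.64 log2 units in the agonist and -1.91 in the control wells, and was the 1 member lower in pool 3 by more than 1 log2 unit in both (5.24% of all genes). Gzmb differed by -2.44 in the agonist and -0.88 in the control wells, and Tbx21 by -2.00 and -0.13. There is 1 pool of each kind, so these differences have no replicate check.

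Other granule genes were described from a list of 17 entries, of which 16 matched a gene row and 10 were tested. Of these 0 passed, 5 were lower and 1 higher in both pools, and the median log2 fold change was -0.21. Gzmk, a granzyme of memory T cells and some NK cells that lies near Gzma on chromosome 13 (113171608 to 113225908), had the smallest p. It had 27 reads in pool 2 and 59 in pool 3 of the agonist, against 137 in pool 2 and 230 in pool 3 of the control. The groups did not overlap (13.5% of all genes, agonist lower). Agonist over control was -2.27 log2 units (SE 0.60, from -3.73 to -0.81), with edgeR's p at 0.00854 and its adjusted p = 0.9999. Ctsw, a cathepsin of cytotoxic lymphocytes, had 48.9 and 23.3 CPM in the agonist and 70.7 and 36.8 CPM in the control libraries (log2 fold change -0.58, SE 0.48). On the log2 scale Fasl, the ligand of the death receptor Fas, differed by -0.44 (SE 0.47) and Ctsc, which activates granzymes, by -0.20 (SE 0.27). The granzyme genes Gzmd, Gzme, Gzmf, Gzmg and Gzmn had 0 reads in all 4 libraries. Of 14 tested genes of granule traffic and release 0 passed, with a median of -0.080 and 3 lower and 2 higher in both pools. By p, Arl8b (0.78, SE 0.41) and Stx11 (0.68, SE 0.54) came first, then Was (-0.29, SE 0.36) and Lyst (-0.20, SE 0.25), all on the log2 scale.

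The other NK lectin-like receptor genes lie on chromosome 6, most of them near Klrk1, Klrd1 and Klrb1c. Klrg1 (122270596 to 122282882) and Klrg2 (38625693 to 38637242) lie farther away. The list includes many near-identical copies, so reads can be split or lost among these copies and their single values are uncertain. Of 20 tested, 0 passed, 10 were lower and 1 was higher in both pools, and the median was -0.21. Klrg1, an inhibitory receptor of mature NK and effector T cells, had the smallest p (log2 fold change -0.74, SE 0.50), followed by Klrb1f (-0.46, SE 0.42), Klre1 (-0.28, SE 0.33) and Klrc1, which encodes the CD94 partner NKG2A (-0.24, SE 0.38). Klrb1a, a relative of Klrb1c, had 0 to 17 reads per library.

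Of 21 tested genes of other NK surface receptors 0 passed, 13 were lower and 1 was higher in both pools, with a median of -0.22. Cd160, a receptor of NK cells and intraepithelial lymphocytes, had 33 reads in pool 2 and 105 in pool 3 of the agonist, against 134 in pool 2 and 210 in pool 3 of the control (log2 fold change -1.51, SE 0.66, edgeR adjusted p = 0.9999). Cd96, Tigit and Cd27, surface receptors shared by NK and T cells, had log2 fold changes of -0.60 (SE 0.34), -0.92 (SE 0.62) and -0.53 (SE 0.43). Of 15 tested adaptor and signalling genes 0 passed, 9 were lower and 1 was higher in both pools (median -0.28). Among them Cd247, the zeta chain used by NKp46 and by T cell receptors, was at -0.75 log2 units (SE 0.36). The kinase genes Lck and Zap70, shared with T cells, were at -0.57 (SE 0.52) and 1.003 (SE 1.03), and Plcg2, a phospholipase of receptor signalling, at 0.61 (SE 0.39). Of 16 tested transcription factor genes of NK and innate lymphoid cells 0 passed, 5 were lower and 2 higher in both pools, and the median was -0.068. Tox was at -1.07 log2 units (SE 0.72) and Ikzf2 at -0.59 (SE 0.35), while Prdm1 was at 0.65 (SE 0.48) and Rora at 0.59 (SE 0.51). Of 9 tested effector cytokine and chemokine genes 0 passed, with 5 lower and 1 higher in both pools (median -0.18). Lta (-0.87, SE 0.52) and Ccl4 (-0.81, SE 1.11) were at negative log2 values, and Ltb (0.99, SE 0.67) and Csf2 (1.30, SE 1.08) at positive ones. Ifng, the cytokine for which NK cells are best known, had 1 and 19 reads in the agonist and 2 and 3 in the control libraries and was not tested.

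Most members are also expressed by other cells of the node, so the markers of those cells are given beside the granule genes. T cell markers were lower in both pools in 15 of 20 and higher in 0, and 0 passed. Their summed level was 1356 CPM in pool 2 and 890 CPM in pool 3 of the agonist, against 1715 CPM in pool 2 and 1073 CPM in pool 3 of the control, and 19 of 20 were lower in pool 3 in both conditions. Cd3e, a chain of the T cell receptor complex, had 65.2 and 24.2 CPM in the agonist and 95.1 and 38.7 CPM in the control libraries, and Cd8a 90.8 and 40.02 CPM in the agonist and 116 and 47.2 CPM in the control libraries. The summed T cell markers thus ordered the 4 libraries as the summed granule genes did, with 0 of the markers at 0 reads. The order was not particular to T cell markers. The summed B cell, cDC2, and stromal and endothelial markers gave it too. So did the lists of other NK lectin-like receptors and of adaptor and signalling genes. The part of T cells in the granule values was not tested.

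Of 13 plasmacytoid dendritic cell markers 8 were lower and 2 higher in both pools, with summed levels of 952 to 1549 CPM in the agonist and 1185 to 1423 CPM in the control libraries. Of 15 B cell markers 11 were lower and 1 was higher in both pools (1021 to 1878 CPM in the agonist, 1260 to 2046 CPM in the control). Plasma cell markers summed to 139 to 207 CPM in the agonist and 363 to 584 CPM in the control libraries, with 2 of 7 tested lower and 2 higher in both pools. Markers of mast cells and basophils summed to 456 to 834 CPM in the agonist and 476 to 790.2 CPM in the control libraries, most of it from Kit, with 0 of 5 tested lower and 2 higher in both pools. Their protease gene Mcpt4 had 189 and 38 reads in the agonist and 0 in both control libraries. Innate lymphoid cell markers summed to 807 to 912 CPM in the agonist and 829 to 867 CPM in the control libraries, with 3 of 10 tested lower in both pools and Il17a at 0 reads in all libraries. The cDC1 markers summed to 337 to 499.9 CPM in the agonist and 361 to 415 CPM in the control libraries, with 2 of 10 lower and 3 higher in both pools. The cDC2 markers summed to 266 to 321 CPM in the agonist and 276 to 372 CPM in the control libraries, with 4 of 10 lower and 1 higher. Dendritic cell markers common to both classes had 1 of 8 lower and 4 higher in both pools. For monocytes and macrophages the counts were 3 lower and 2 higher of 12, for neutrophils 0 and 0 of 5 (Ly6g at 0 reads), and for stromal and endothelial cells 1 and 1 of 5. The part of these cells in the members' values was not tested.

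**Figure D4:**
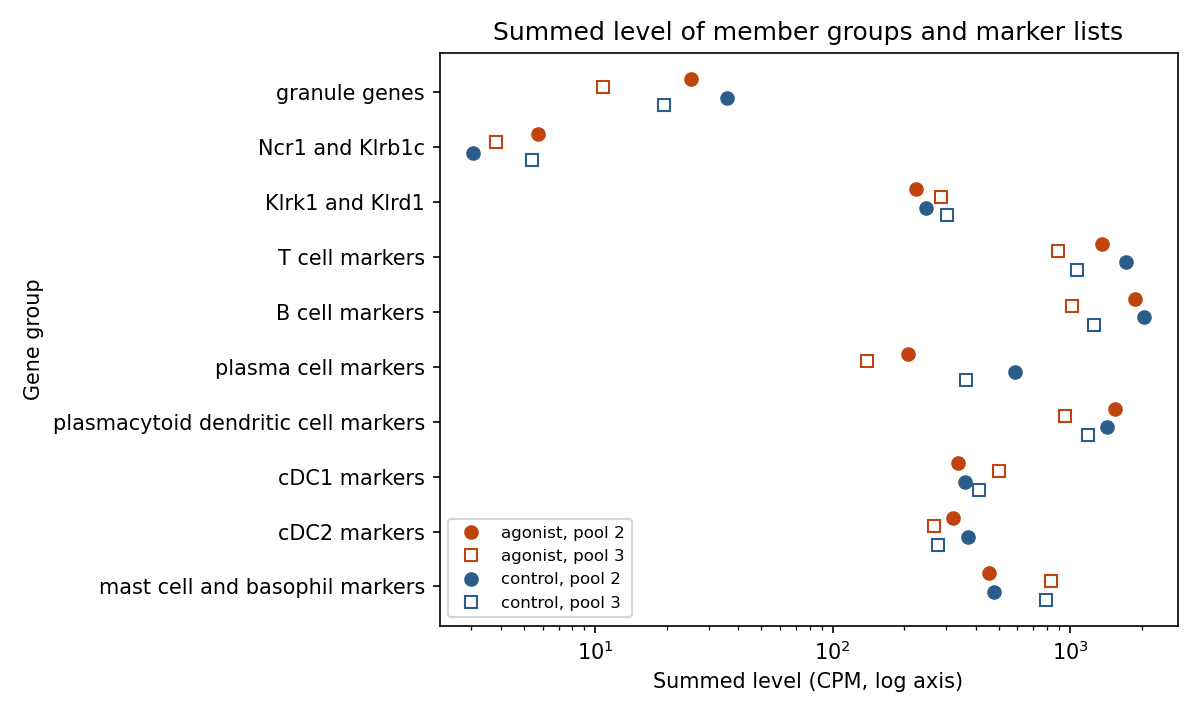
Summed level in CPM, on a log axis, of 3 groups of members (top) and of marker lists of other cells in each library; agonist libraries are drawn above control libraries, filled circles are pool 2 and open squares pool 3. The granule genes and the T cell markers have the same order of the 4 libraries, from 10.7 to 35.8 CPM and from 890 to 1715 CPM. The B cell and cDC2 markers share that order, while Ncr1 and Klrb1c have another.

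The genes whose course over the 4 libraries was most like the mean course of the members were Sos1, Nlrc3, Ly6a, Ift80 and mt-Rnr2, out of 9996 candidates with an average log2 CPM of at least 2. Likeness was the Euclidean distance between mean-centred log2 CPM profiles, which was 0.037 for Sos1 and 0.138 for mt-Rnr2. With 4 libraries many genes share such a course, so the distance is a description of these libraries. Sos1 had 19.6 and 10.4 CPM in the agonist and 21.5 and 18.3 CPM in the control libraries. Among the members themselves Nkg7 lay nearest to the mean course (0.228) and Gzmb farthest from it (1.96).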

How the data were processed

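The sample titles gave each library's group and number. Raw counts of reads, 1 whole number for each gene, were deposited by the authors. STAR 2.7, HTSeq 0.11.1 and the build GRCm38 (mm10) are named in the submitters' processing notes, and per the labels' protocols libraries came from the SMART-seq v4 kit; the strand setting is not given in the sources used here. All 55450 gene rows matched GENCODE M21, which gave coordinates and exon lengths. HTSeq summary lines were left out of library sizes; reads outside genes were 15.96% to 19.99%, reads overlapping several genes 5.77% to 6.50% and reads with several alignments 6.54% to 6.99% of a library.

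The counts were analysed with edgeR 4.0.16, limma 3.58.1 and DESeq2 1.42.0 in R 4.3.3, and with Python 3.11.15, pandas 2.3.3, NumPy 2.4.6 and matplotlib 3.10.9. Genes were kept with edgeR's default filter (minimum count 10), libraries were scaled by the trimmed mean of M-values, and a two-sided quasi-likelihood test set agonist against control with no other term. The p-values of all tested genes were adjusted together (Benjamini-Hochberg, threshold 0.05). Each SE is the size of the log2 fold change divided by the root of F. Log2 CPM used a prior count of 2. The protocol ties same-numbered libraries to the same divided cells, and their deviations from the group means correlated (r = 0.288 over 18297 genes), so a blocked fit stands beside the first. With 2 pools, p-values of the first fit rest on the spread between the 2 libraries of a condition. Those of the blocked fit rest on how far the agonist difference varied between the 2 pools. In both fits genes share the estimate of spread. The fits were also run on counts simulated with the spread estimated from these same libraries. That checks the working of the fits and cannot show whether 2 pools are enough for these members.

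The 22 lists with 296 entries (288 matched), counting the members as 1 list, were chosen with earlier results of these data known. Named are the 10 members, up to 4 genes of a list with the smallest unadjusted p, relatives of the members, the genes that define a cell type, and the 5 genes nearest in course. Srgn, Serpinb9, Ifng, Runx3, Kit, H2-T23, Ulbp1, Il15 and genes named for a count of 0 were chosen after their values were seen.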

Additional observations from a re-analysis of the deposited data

How the results depend on the processing

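The number of genes called between agonist and control was 0 in the edgeR fit with group only, 1 with the pool as a block, 9 with no filter, 7 in DESeq2 and 6 in DESeq2 with the pool as a block, and 0 to 2 when single libraries were left out; none was a member in any of these fits. The count of members called was 0 under every alternative. Over the members the median was -0.27, and -0.87 to -0.11 when single libraries were left out, which sets 1 pool against 2. Klrb1c changed sign to 0.092 with the pool as a block, 0.0014 with DESeq2 size factors, 0.045 with a stricter filter, 0.0013 in DESeq2, 0.13 in DESeq2 with the block and 0.070 in limma-voom. Tbx21 changed sign to -0.083 with the block, -0.086 in DESeq2 with the block and -0.16 in limma-voom, and Klrk1 to 0.011 with the stricter filter, which left out Eomes and Tbx21. Single libraries left out gave ranges of -0.52 to 0.83 for Klrb1c, -1.26 to 1.03 for Tbx21, -0.26 to 0.22 for Klrk1, -0.36 to 0.0025 for Klrd1, -0.054 to 0.66 for Ncr1, -0.84 to 0.029 for Nkg7 and -2.23 to 0.89 for Prf1; the cause was not tested. Gzma, Gzmb and Eomes stayed below 0 in every fit that tested them, and with single libraries left out Gzmb ranged from -3.41 (without agonist replicate 2) to -0.93 (without agonist replicate 3). Gzma ranged from -0.91 (without agonist replicate 2) to -0.25 (without control replicate 2), and Eomes from -1.83 (without control replicate 3) to -0.89 (without control replicate 2). Each within-pool ratio was compared again under another prior count and other scalings, and in 56 of these comparisons it moved by less than its counting interval. Total counts moved the other 4, those of Klrk1 and Klrd1 in each pool, and the pool 2 ratio of Klrk1 changed sign to 0.0044. The ratio of Klrk1 to Ncr1 was 55.6 in CPM not divided by length, against 11.9 per kilobase. Depth limits Tbx21 and Eomes most, at 6 to 28 and 23 to 71 reads per library.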

Other observations

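Ligands of NK receptors and cytokines that act on NK cells were read in the same CD11c+ cells. H2-T23, which encodes the class I molecule Qa-1 read by CD94 pairs, had 1001 and 1192 CPM in the agonist and 1232 and 1069 CPM in the control libraries. Among the ligands of NKG2D, Ulbp1 had 22.4 and 44.3 CPM in the agonist and 25.6 and 42.9 CPM in the control libraries, and Raet1d had 29 and 3 reads in the agonist and 82 and 0 reads in the control libraries. Of 10 tested ligand genes 0 passed edgeR's test, with a median log2 fold change of -0.070 and 3 lower and 2 higher in both pools. By p, Nectin2, a ligand of receptors shared by NK and T cells, came first, at 0.92 log2 units (SE 0.49). Il15, the cytokine that NK cells need to survive, had 55.8 and 145 CPM in the agonist and 63.1 and 139.5 CPM in the control libraries, and was higher in pool 3 in both conditions. Of 6 tested cytokine genes 0 passed, with 1 lower and 3 higher in both pools and a median of 0.035. Ebi3, a subunit of IL-27, was at 0.31 log2 units (SE 0.36) and Il18 at 0.24 (SE 0.45), and the IL-12 subunit genes Il12b and Il12a were at -0.33 (SE 0.42) and -0.35 (SE 0.51).

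Serglycin (Srgn), the proteoglycan that packs granzymes, had 912 and 1084 CPM in the agonist and 1021 and 1058 CPM in the control libraries, and Serpinb9, an inhibitor of granzyme B, had 3726 and 6756 CPM in the agonist and 4222 and 6299 CPM in the control libraries. Agonist over control was -0.058 log2 units for Srgn (SE 0.24) and -0.0053 for Serpinb9 (SE 0.36).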
